A study of Mus musculus with 27 samples.

Results

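The genes described here are 9 kidney genes for water channels, the vasopressin V2 receptor and the epithelial sodium channel (ENaC). These are the water channels Aqp1, Aqp2, Aqp3, Aqp4 and Aqp6, the receptor Avpr2, and the ENaC subunits Scnn1a, Scnn1b and Scnn1g. They were chosen by symbol, and all 9 were found among the 19392 genes of the expression table. RNA-Seq had been done on left kidneys of C57BL/6 mice whose pedicle was clamped for 0, 16, 18, 20, 22, 24, 26, 28 or 30 min and which were killed after 24 h of reperfusion (the uIRIx model). There were 9 groups of 3 mice, 27 in all. The surgical protocol in the labels, which counts the sham group as 0 min of clamping, has the right kidney removed before the clamp and the mice kept at 37 °C. By that protocol the 0 min group is a nephrectomized control, although no label states the nephrectomy for the sham mice separately. The left pedicle was clamped in the other 8 groups only. The age and sex of the mice were not given in the sources used here.

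Water leaves the nephron through aquaporins. Aqp1 is the constitutive channel of the proximal tubule and the thin descending limb, while vasopressin acts through Avpr2 and cAMP on the collecting duct principal cell, moving Aqp2 to the luminal membrane, and the water leaves on the blood side through Aqp3 and Aqp4. ENaC, built from an alpha, a beta and a gamma subunit, takes up sodium in the distal convoluted tubule, connecting tubule and collecting duct under aldosterone. A poor ability to concentrate urine is a well-known feature of ischemic kidney injury.

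Values are FPKM, that is, fragments mapped to a gene scaled to the length of its transcript and to the mapped fragments of the library. Differences are on the quantile normalized log2(FPKM + 1) scale from limma, with p-values adjusted by Benjamini and Hochberg over the 18188 genes tested. A gene was called when its adjusted p-value was under 0.05, and was a DEG when its absolute log2 difference was also above 1. FPKM carries no read number, so the depth behind a value is unknown, and its error is the spread between the 3 mice. For the limma differences, standard errors and intervals rest on 1 spread per gene, pooled over all 27 kidneys, not on the compared groups alone. All 9 genes passed the filter of more than 0 FPKM in at least 3 kidneys. In these whole-kidney libraries, fewer cells of a type and less RNA per cell cannot be told apart.

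Before the results, some libraries need mention. The tubular injury marker Havcr1 was at 2.49 to 22.02 FPKM at 0 min and at 35.08 FPKM or more in every ischemic kidney. The injury marker Lcn2 overlapped between the 2 shortest times, since replicate 3 at 0 min was at 63.62 FPKM and replicate 3 at 16 min at 31.43 FPKM. Slc14a2, a urea transporter of the inner medulla that is a vasopressin target, was at 1.73 FPKM in replicate 2 at 18 min and at 0.37 FPKM in replicate 2 at 26 min, against 21.56 to 99.12 FPKM in the other 25 kidneys. In both of these kidneys Aqp4 was also the lowest of its ischemia time. The results that rest on them are given with and without them where a call changed.

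In the sham kidneys the 9 genes spanned a wide range of levels. Aqp1 was the highest at 490.4 ± 19.2 FPKM (SD, n = 3), followed by Aqp2 at 234.6 ± 58.5 FPKM, and the 2 ranges did not overlap. Scnn1a at 86.5 FPKM and Aqp3 at 74.8 FPKM overlapped, as did Aqp6 at 28.9 FPKM and Scnn1b at 27.1 FPKM, and Scnn1g at 19.2 FPKM and Avpr2 at 18.7 FPKM. Aqp4 was the lowest at 13.3 ± 2.40 FPKM. After 30 min the order had changed at the top. Aqp2, at 268.7 FPKM, lay above all the others, and the ranges of Scnn1a at 65.3 FPKM, Aqp1 at 58.2 FPKM and Aqp3 at 53.2 FPKM overlapped each neighbour in this order.

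**Figure D1:**
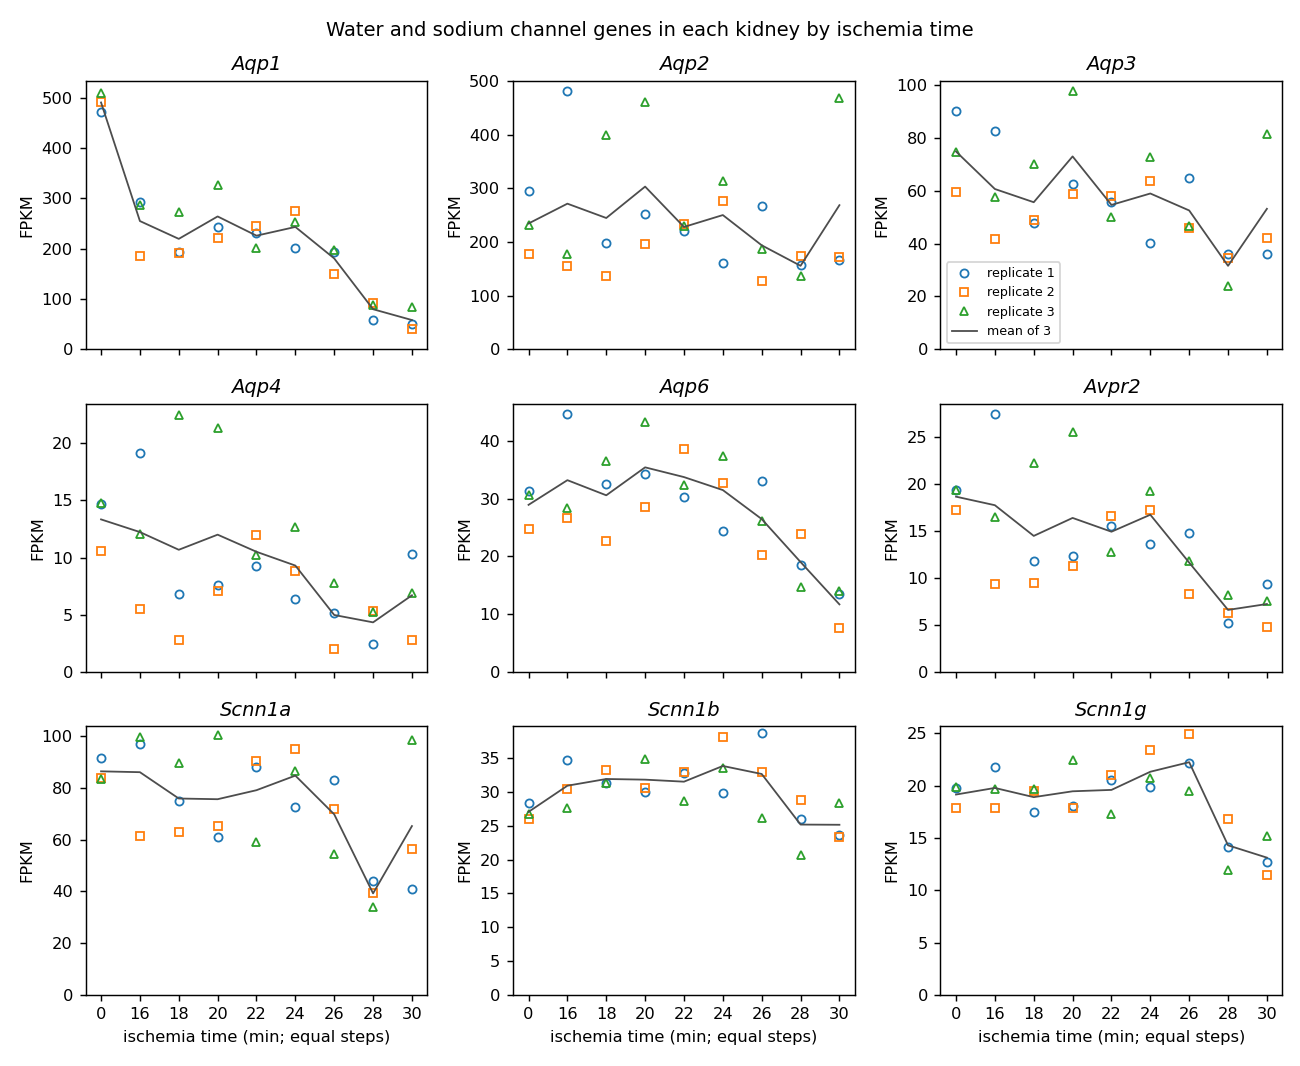
FPKM of the 9 genes (vertical axes) in each of the 27 kidneys by ischemia time in min (horizontal axis, times at equal steps), with 1 marker per replicate and a line through the mean of 3. Aqp1 drops from 471.18 FPKM or more at 0 min to 326.61 FPKM or less at every later time, Aqp2 spreads from 127.58 to 482.3 FPKM with no such step, Scnn1g is at 17.28 FPKM or more up to 26 min and at 16.82 FPKM or less at 28 and 30 min, and the 28 and 30 min values of Scnn1b overlap its sham values.

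Aqp1 was the only one of the 9 genes that was called at every ischemia time. It was at 471.18, 490.44 and 509.52 FPKM in the 3 sham kidneys. At 16 min it was at 292.99, 185.03 and 286.6 FPKM, and over the 18 kidneys of 16 to 26 min it ranged from 149.83 to 326.61 FPKM with a median of 226.5 FPKM. The sham kidneys and the 16 to 26 min kidneys did not overlap. At 28 min the values were 58.51, 92.82 and 87.86 FPKM, and at 30 min they were 49.88, 39.73 and 85.07 FPKM, all below every kidney of the shorter times. Relative to the sham mean, the mean was 52.0% (16 min), 36.8% (26 min), 16.3% (28 min) and 11.9% (30 min).

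The log2 difference of Aqp1 from 0 min was -1.16 ± 0.25 at 16 min (SE pooled over the 27 kidneys, n = 3 against 3, limma, adjusted p = 0.0035). At 30 min it was -3.27 ± 0.25 (limma, adjusted p = 2.6e-09). The call at 16 min was lost in a fit of only the 0 and 16 min kidneys (-1.03, adjusted p = 0.068). It was the single gene of the 9 called at each time from 16 to 26 min. The share of all tested genes called lower was 9.61% (16 min), 15.2% (18 min), 12.1% (20 min), 15.4% (22 min), 14.8% (24 min) and 15.2% (26 min). Within 16 to 26 min no trend of Aqp1 with time was called (slope -0.03 log2 units per min, 95% confidence interval -0.07 to 0.02, adjusted p = 0.77). From 26 to 28 min it fell by 1.21 on the log2 scale (adjusted p = 0.0024), and 28 and 30 min did not differ by the test (-0.43, interval -0.96 to 0.10, adjusted p = 0.30). The levels of Aqp1 thus formed 3 ranges that shared no kidney, at 0 min, at 16 to 26 min and at 28 and 30 min.

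Aqp1 lies on chromosome 6 (GRCm38.p6, 55336299 to 55348555, plus strand) and Aqp2 on chromosome 15 (99579056 to 99584545, plus strand). The RefSeq promoter table held 7 of the 9 genes, all but Aqp4 and Scnn1a. The 250 bases before the start of Aqp1 and of Aqp2 are shown, plus strand and 5′ to 3′, because these were the most abundant of the 9 genes in the sham kidneys, and Aqp1 was called at every ischemia time and Aqp2 at none. They are at chr6:55336049-55336298 and chr15:99578806-99579055. Capitals mark matches, on either strand, to 4 short motifs: TGACGT (the core of the cAMP response element), GATAA (GATA factors), TGTTCT (a half-site of steroid receptors) and GTTAAT (a half-site of HNF1).
Aqp1: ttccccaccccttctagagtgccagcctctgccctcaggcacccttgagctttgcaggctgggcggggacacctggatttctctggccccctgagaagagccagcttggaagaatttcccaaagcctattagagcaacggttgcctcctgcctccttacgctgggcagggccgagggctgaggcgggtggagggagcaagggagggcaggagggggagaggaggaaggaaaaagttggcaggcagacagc
Aqp2: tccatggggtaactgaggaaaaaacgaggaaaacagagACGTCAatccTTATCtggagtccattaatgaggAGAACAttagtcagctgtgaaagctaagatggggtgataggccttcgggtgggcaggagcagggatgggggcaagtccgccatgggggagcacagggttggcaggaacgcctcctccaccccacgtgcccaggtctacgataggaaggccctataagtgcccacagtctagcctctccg

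The Aqp2 window held 3 of the motifs, all on the minus strand: TGACGT from 212 bases before the start, GATAA from 202 and TGTTCT from 179. Of all 32851 RefSeq windows of this length, 6.5% held TGACGT, 22.6% GATAA, 16.1% TGTTCT and 6.4% GTTAAT. The Avpr2 window held GATAA from 185 bases before its start and TGTTCT from 59 and from 50. None of the 4 motifs was found in the windows of Aqp1, Aqp3, Aqp6, Scnn1b and Scnn1g. The windows of Aqp6, Avpr2 and Scnn1g end just before a RefSeq start that lies within the annotated gene. Those of Aqp6 and Avpr2 lie wholly within the annotated gene.

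Aqp2, the vasopressin-regulated channel of the luminal membrane, did not follow Aqp1. It was at 294.74, 177.9 and 231.09 FPKM at 0 min, at 156.79, 173.4 and 136.94 FPKM at 28 min and at 166.06, 171.96 and 468.05 FPKM at 30 min. The 28 min kidneys lay below the sham kidneys, and the 30 min kidneys spread from below to far above them. Within a single ischemia time the values could differ widely, as at 16 min with 482.3, 155.14 and 177.08 FPKM. The log2 difference of Aqp2 from 0 min was -0.50 at 28 min (95% confidence interval -1.47 to 0.47, limma, adjusted p = 0.41) and 0.15 at 30 min (interval -0.82 to 1.12, adjusted p = 0.83). The interval at 28 min still holds a fall larger than 1 log2 unit, so a fall of that size was not excluded. The value at 30 min rests on replicate 3, without which it was -0.33. No difference among the 9 times was called for Aqp2 (moderated F test of limma, adjusted p = 0.89).

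Aqp3, a channel of the blood-side membrane of principal cells that also carries glycerol, was at 90.2, 59.46 and 74.79 FPKM at 0 min. It was at 35.98, 34.65 and 24.13 FPKM at 28 min, below every kidney at 0 to 26 min. At 30 min it was at 35.93, 42.08 and 81.45 FPKM, so that replicates 1 and 2 lay near the 28 min kidneys and replicate 3 within the sham range. Aqp3 fell by 1.31 on the log2 scale at 28 min against 0 min (adjusted p = 0.0013). At 30 min the difference was -0.57 (interval -1.20 to 0.07, adjusted p = 0.13), and without replicate 3 of that time it was -0.95 (adjusted p = 0.011). The pooled difference of 28 and 30 min from 16 to 26 min was -0.52 (adjusted p = 0.018), and it was no longer called without replicate 3 at 28 min (-0.43), replicate 1 at 30 min (-0.39) or replicate 2 at 30 min (-0.45).

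Aqp4, the other blood-side channel and the more abundant one in the inner medulla, varied widely between mice. It was at 14.65, 10.57 and 14.79 FPKM at 0 min, and the kidneys of 16 to 26 min ranged from 2.03 to 22.42 FPKM with a median of 8.30 FPKM. At 28 min it was at 2.49, 5.33 and 5.21 FPKM, below the 3 sham kidneys but within the range of the shorter ischemia times. At 30 min it was at 10.34, 2.84 and 6.94 FPKM. Aqp4 fell by 1.56 on the log2 scale at 28 min (interval -2.76 to -0.37, adjusted p = 0.029), a call that was lost without replicate 1 or 3 at 0 min or replicate 1 at 28 min (adjusted p = 0.071 to 0.113). The difference was -1.49 at 26 min (adjusted p = 0.055; -1.83, adjusted p = 0.041, without replicate 3) and -1.11 at 30 min (adjusted p = 0.11). That of 28 and 30 min from 16 to 26 min was -0.66 (adjusted p = 0.10). It was -0.77 without replicate 2 at 18 min (adjusted p = 0.039) and -0.84 without both kidneys low in Slc14a2 (adjusted p = 0.021).

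Aqp6 is an anion-conducting aquaporin of intracellular vesicles in acid-secreting intercalated cells. It was at 31.35, 24.75 and 30.62 FPKM at 0 min, and the kidneys of 16 to 26 min ranged from 20.19 to 44.54 FPKM around the sham values. At 28 min it was at 18.48, 23.92 and 14.67 FPKM, and at 30 min at 13.41, 7.69 and 14.01 FPKM, below all kidneys of the shorter times and also below every 28 min kidney. Aqp6 was thus the only one of the 5 channels besides Aqp1 whose mean was lower at 30 than at 28 min. It fell by 1.35 on the log2 scale at 30 min against 0 min (adjusted p = 1.0e-04). The fall at 28 min was 0.72 (-0.72, adjusted p = 0.020), a call lost without replicate 1 or 3 at 0 min or replicate 3 at 28 min (adjusted p = 0.053 to 0.105). From 28 to 30 min the difference was -0.63 (interval -1.14 to -0.12), which did not pass the adjustment (adjusted p = 0.097).

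Avpr2, the receptor through which vasopressin raises cAMP in the collecting duct and thick ascending limb, was at 19.36, 17.24 and 19.41 FPKM at 0 min. Over 16 to 26 min it ranged from 8.29 to 27.43 FPKM with a median of 14.2 FPKM, to both sides of the sham values. At 28 min it was at 5.27, 6.34 and 8.24 FPKM and at 30 min at 9.36, 4.83 and 7.54 FPKM, below the 3 sham kidneys. Avpr2 fell by 1.50 on the log2 scale at 28 min (adjusted p = 0.0013) and by 1.39 at 30 min (adjusted p = 0.0021), and the means were 35.4% and 38.8% of the sham mean. At 26 min the difference was -0.78 (interval -1.51 to -0.06), which did not pass the adjustment (adjusted p = 0.097). Avpr2 lies on the X chromosome (73891765 to 73894428, plus strand), where its exons overlap those of Arhgap4 on the other strand and its span overlaps L1cam. The strandedness of the libraries was not given in the sources used here, and without strand the reads of overlapping exons cannot be told apart.

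Of the 3 ENaC subunits, the alpha subunit Scnn1a is needed for a conducting channel. It was at 91.74, 83.97 and 83.66 FPKM in the sham kidneys and still at 82.97, 72.03 and 54.45 FPKM after 26 min of ischemia. The 3 kidneys of 28 min were at 44.04, 39.57 and 34.12 FPKM and those of 30 min at 40.74, 56.55 and 98.55 FPKM. The 28 min kidneys lay below every kidney of 0 to 26 min, while replicate 3 at 30 min lay above the sham kidneys. Scnn1a fell by 1.20 on the log2 scale at 28 min against 0 min (adjusted p = 0.0013). At 30 min the difference was -0.47 (interval -1.05 to 0.11, adjusted p = 0.17), and without replicate 3 it was -0.86 (adjusted p = 0.0073). Replicate 3 at 30 min was thus the kidney that set whether Aqp3 and Scnn1a were called at that time.

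The beta and gamma subunits had a narrower spread. Scnn1b was at 28.39, 26.05 and 26.71 FPKM at 0 min, ranged from 26.17 to 38.78 FPKM over 16 to 26 min with a median of 32.1 FPKM, and was at 25.98, 28.81 and 20.73 FPKM at 28 min and at 23.67, 23.4 and 28.36 FPKM at 30 min. Its late values overlapped the sham values, and its level at 16 to 26 min was mostly above both. Scnn1b fell by 0.35 on the log2 scale at 28 and 30 min against 16 to 26 min (adjusted p = 4.8e-04), while against 0 min it differed by -0.24 at 28 min (interval -0.51 to 0.03, adjusted p = 0.14) and by -0.18 at 30 min (interval -0.45 to 0.09, adjusted p = 0.26). The difference of 16 to 26 min from 0 min was 0.14 (interval -0.07 to 0.35, adjusted p = 0.29).

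Scnn1g was at 19.78, 17.85 and 19.84 FPKM at 0 min, ranged from 17.28 to 24.99 FPKM over 16 to 26 min, and was at 14.14, 16.82 and 11.93 FPKM at 28 min and at 12.74, 11.42 and 15.2 FPKM at 30 min. The 6 kidneys of 28 and 30 min lay below all 21 kidneys of the shorter times. Scnn1g fell by 0.53 on the log2 scale at 28 min (adjusted p = 0.0012) and by 0.60 at 30 min (adjusted p = 3.1e-04) against 0 min. Scnn1g and Scnn1b are neighbors on chromosome 7, 96.6 kb apart with no annotated gene between them, and Aqp2 and Aqp6 are 13.9 kb apart on chromosome 15 with Aqp5 between them.

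Counted together, 7 of the 9 genes were called lower at 28 min against 0 min (all but Aqp2 and Scnn1b), where 23.6% of all tested genes were called lower, and 5 were DEGs (4.21% of all genes were DEGs lower at that time). At 30 min against 0 min, Aqp1, Aqp6, Avpr2 and Scnn1g were called, that is 4 of 9 lower against 25.4% of all genes. None of the 9 was called higher in any of these comparisons. The median log2 difference of the 9 genes from 0 min was -1.20 at 28 min and -0.60 at 30 min, and that of all tested genes was 0.00 at both. These comparisons share the 3 sham kidneys.

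**Figure D2:**
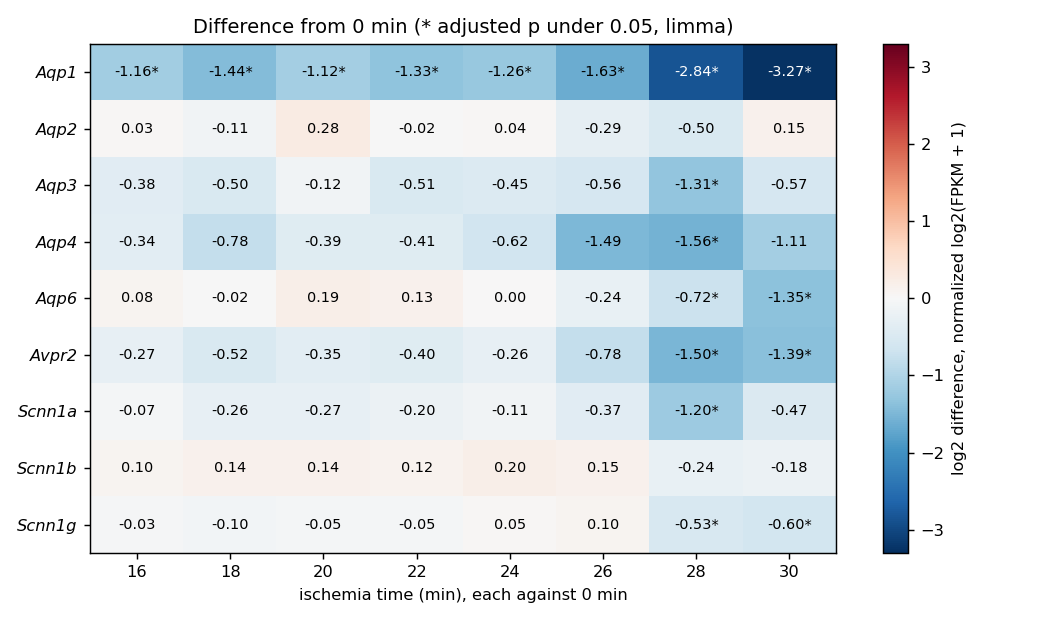
Log2 difference of each gene (rows) from 0 min at each ischemia time in min (columns), on the normalized log2(FPKM + 1) scale, blue where lower and red where higher, with an asterisk where the limma adjusted p-value was under 0.05. Aqp1 is marked at all 8 times, and Aqp2 and Scnn1b at none.

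From 26 to 28 min, 4 of the 9 genes were called lower (8.52% of all genes). The falls of Aqp1 (-1.21) and Scnn1g (-0.64, adjusted p = 0.0013) kept their calls when any 1 kidney was left out. Those of Scnn1a (-0.83, adjusted p = 0.042) and Scnn1b (-0.39, adjusted p = 0.042) were close to the threshold. Both were lost without replicate 1 or 2 at 26 min, replicate 1 or 3 at 28 min, or both kidneys low in Slc14a2, and Scnn1a also without replicate 2 at 28 min. From 28 to 30 min none of the 9 genes was called by limma, against 13.2% of all genes called in either direction, and 3 had an unadjusted p-value under 0.05. These were Aqp3 (0.74, adjusted p = 0.12) and Scnn1a (0.72, adjusted p = 0.094), which were higher at 30 min and were called without replicate 1 at 30 min (0.995 and 1.03), and Aqp6, which was lower.

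The groups 16 to 26 min and 28 and 30 min were taken from earlier results of these data. The pooled tests here and the ratio tests below thus rest on a grouping not independent of these kidneys. Pooled over kidneys, 28 and 30 min differed from 16 to 26 min in 7 of the 9 genes, all lower (22.5% of all genes were called lower), with Aqp2 and Aqp4 not called. The largest of these falls were those of Aqp1 (-1.73), Aqp6 (-1.06) and Avpr2 (-1.01), the 3 DEGs among them (2.4% of all genes were DEGs that were lower). The median over the 9 genes was -0.62, against 0.01 over all tested genes. Between 16 to 26 min and 0 min, 1 of the 9 genes was called (Aqp1, -1.32, lower, with 20.6% of all genes called lower). No slope within 16 to 26 min was called for any of the 9, and 0 had an unadjusted p-value under 0.05 (0.011% of all genes were called by the slope). A difference among the 9 times was called by the F test for 7 of 9 genes (4 without replicate 1 or replicate 3 at 28 min) and for 55.1% of all genes.

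Ratios of 2 genes within a kidney set the genes side by side without the level that a kidney shares. They were taken as log2 of (FPKM + 1) over (FPKM + 1). Between the time groups above, 12 differences of 6 ratios were tested by two-sided exact permutation, with p-values adjusted over the 12. Aqp1 to Aqp2 was 1.09 ± 0.39 (SD, n = 3) at 0 min, -0.02 ± 0.37 (n = 18) at 16 to 26 min and -1.53 ± 0.69 (n = 6) at 28 and 30 min. Aqp1 was thus the more abundant of these water channels in the sham kidneys and the less abundant after 28 and 30 min. The ratio fell by 1.11 from 0 min to 16 to 26 min (exact permutation p = 0.0015, adjusted 0.0060) and by 1.51 from there to 28 and 30 min (exact permutation p = 1.5e-05, adjusted 1.8e-04).

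The receptor also fell against its target channel. Avpr2 to Aqp2 was 0.74 log2 units lower at 28 and 30 min than at 16 to 26 min (exact permutation, adjusted p = 0.0036), with a range of -5.78 to -3.90 against -4.24 to -3.35. From 0 min to 16 to 26 min the difference was -0.34 (exact permutation, adjusted p = 0.065). The ratios of both blood-side channels to Aqp2 did not pass the adjustment, with Aqp3 to Aqp2 at -0.36 and -0.27 (both adjusted p = 0.065 by exact permutation) and Aqp4 to Aqp2 at -0.58 (adjusted p = 0.065) and -0.40 (adjusted p = 0.13) in the same 2 comparisons. Single kidneys set some of these. Without replicate 1 at 0 min (-0.50), replicate 3 at 16 min (-0.38) or replicate 1 at 24 min (-0.37) the first difference of Avpr2 to Aqp2 was called. So were the first of Aqp4 to Aqp2 without replicate 3 at 16 min (-0.62), the second without replicate 1 at 30 min (-0.63) and the second of Aqp3 to Aqp2 without replicate 1 at 16 min (-0.30).

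Within ENaC the subunits moved apart a little. Scnn1b to Scnn1a rose by 0.39 log2 units from 0 min to 16 to 26 min (exact permutation, adjusted p = 0.025), from a narrow -1.66 to -1.61 in the sham kidneys to -1.82 to -0.91. With any 1 sham kidney left out the difference stayed between 0.39 and 0.41 and was no longer called (adjusted p = 0.063 to 0.095). At 28 and 30 min it was 0.31 higher again (exact permutation, adjusted p = 0.065), and without replicate 3 at 30 min 0.47 higher (adjusted p = 0.0059). Scnn1g to Scnn1a differed by 0.23 (adjusted p = 0.13) and 0.11 (adjusted p = 0.47) by the same test.

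**Figure D3:**
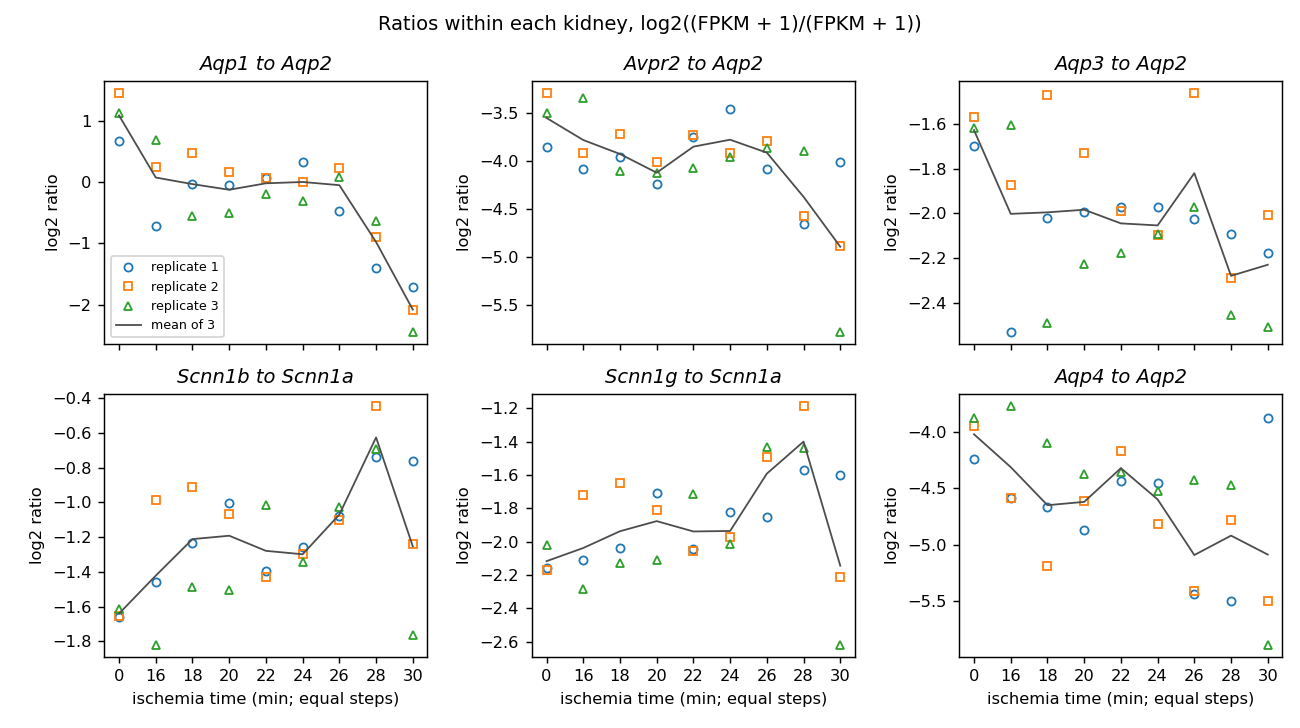
Log2 ratio of 2 genes within each kidney (vertical axes, log2 of (FPKM + 1) over (FPKM + 1)) by ischemia time in min (horizontal axis, times at equal steps), with 1 marker per kidney and a line through the mean of 3. Aqp1 to Aqp2 is above 0 in the 3 sham kidneys and below 0 in all 6 kidneys of 28 and 30 min, and Scnn1b to Scnn1a is highest at 28 min.

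The 9 genes also varied together between mice of the same ischemia time. In 5 kidneys every one of the 9 genes was above the mean of its ischemia time, namely replicate 1 of the 16 and 26 min groups, replicate 2 of the 22 min group and replicate 3 of the 20 and 30 min groups. In another 5 none was, namely replicate 1 of the 20 and 24 min groups and replicate 2 of the 16, 20 and 30 min groups. Over the 27 deviations from the time means, which share the kidney's dissection and library, Pearson's r was 0.91 between Aqp4 and Avpr2, 0.90 between Aqp2 and Aqp3, 0.85 between Aqp3 and Scnn1a, 0.83 between Aqp2 and Aqp6 and 0.81 between Scnn1b and Scnn1g. The lowest value was 0.05, between Aqp4 and Scnn1b. The medullary gene Slc14a2 went with Aqp4 (0.71) and Aqp6 (0.63), and not with Scnn1b (-0.03) or Scnn1g (-0.16). The share of medulla in each piece of tissue is not recorded in the labels, and its part in these results was not tested.

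**Figure D4:**
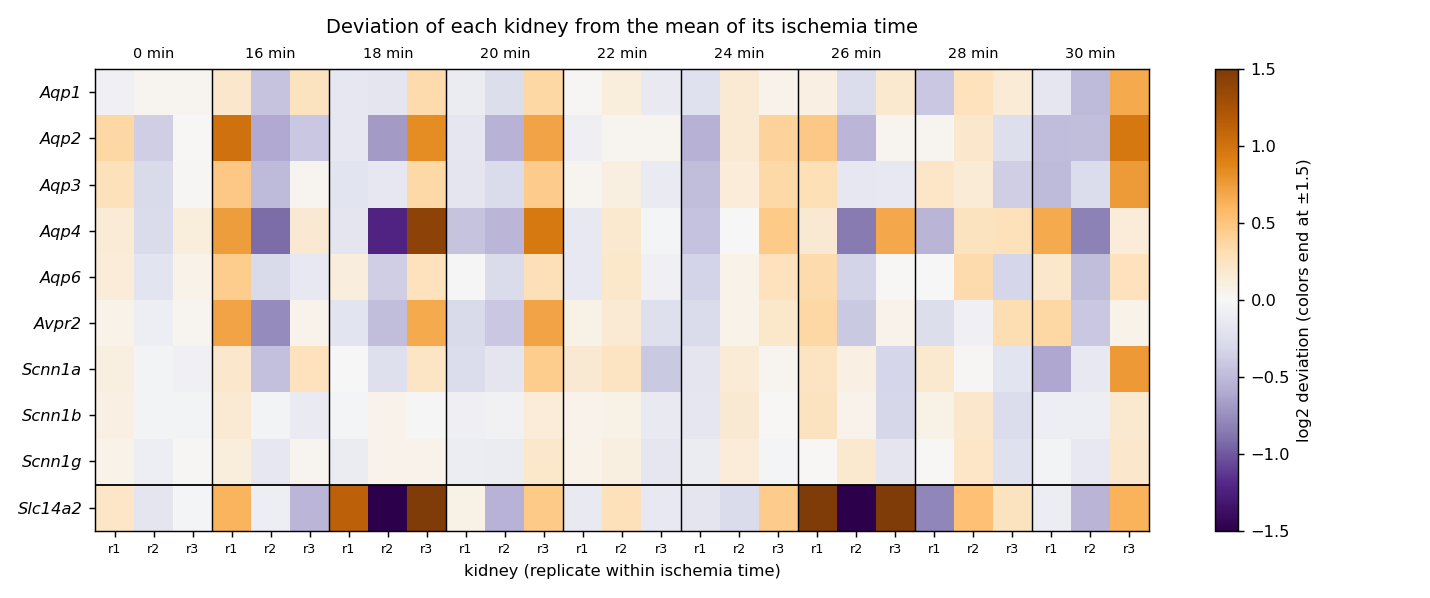
Deviation of each kidney (columns, replicates r1 to r3 within each ischemia time) from the mean of its ischemia time for the 9 genes and for Slc14a2 (rows), in log2 units of normalized FPKM + 1, orange where above and purple where below, with colors ending at 1.5 in either direction. The 9 genes share their color in replicate 1 at 16 min, replicate 3 at 20 min and replicate 3 at 30 min, and the darkest purple cells of Slc14a2 are replicate 2 at 18 min and at 26 min.

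Markers of the collecting duct and of other cell types were read beside the 9 genes, with 26.9% of all tested genes called higher and 25.4% lower at 30 min against 0 min. The principal cell markers (7 genes that hold none of the 9) summed to 242.43 to 305.84 FPKM per kidney at 0 min. Their sum was 204.98 to 233.99 FPKM at 28 min, below the sham kidneys, and 248.99 to 274.69 FPKM at 30 min, within the sham range. The sum weighs abundant genes most, and Hsd11b2 alone went from a mean of 119.5 FPKM at 0 min to 76.4 FPKM at 28 min. At 28 min against 0 min, Npnt and Hsd11b2 were called lower, 2 of the 7, and none higher (23.6% of all genes were called lower). The median log2 difference of the list was -0.01 at 28 min and 0.35 at 30 min. At 30 min against 0 min, 2 of the 7 rose, Tfcp2l1 (0.39) and Gata3 (0.35), both transcription factors. Another 2 fell, the matrix protein Npnt (-0.60) and the glucocorticoid-inactivating enzyme Hsd11b2 (-0.51). The deviations of Aqp2 went with those of this list (r = 0.87 over 27 kidneys), and so did those of Aqp6 (0.85), Aqp4 (0.84) and Avpr2 (0.83). The values were lower for Aqp3 (0.67), Aqp1 (0.56), Scnn1a (0.44), Scnn1b (0.40) and Scnn1g (0.37). With the intercalated cell list, r was 0.84 for Scnn1a, 0.80 for Scnn1g, 0.78 for Scnn1b and 0.70 for Aqp3. For Aqp6 the value with the intercalated cell list was 0.44.

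Intercalated cell markers fell in 8 of 10 at 28 min against 0 min (median of the list -0.82) and in 6 of 10 at 30 min (median -0.53), led at 30 min by the anion exchanger Slc4a1 (-2.51, from a mean of 14.7 FPKM) and Insrr (-1.07, from 10.8 to 5.09 FPKM), and summed to 205.52 to 218.99 FPKM at 0 min, 91.9 to 129.38 FPKM at 28 min and 121.43 to 163.58 FPKM at 30 min. Proximal tubule markers fell in 6 of 10 at 28 min and in 9 of 10 at 30 min, led there by the endocytic receptors Lrp2 (-2.85) and Cubn (-2.69), and their sum went from 5671.94 to 6267.75 FPKM at 0 min to 2175.5 to 2521.96 FPKM at 28 min and 1284.54 to 1542.9 FPKM at 30 min. At 16 to 26 min against 0 min, where Aqp1 was called lower, 3 of these 10 were called lower (Lrp2, Slc27a2 and Cubn). Of all tested genes 20.6% were called lower there, and the median of the list was -0.01. The deviations of Aqp1 had r = -0.28 with this list over 27 kidneys, and 0.71 with the loop and distal convoluted tubule list. All 4 loop and distal convoluted tubule markers fell at both 28 and 30 min, with Pvalb, a calcium buffer of the distal convoluted tubule, at -4.11 at 30 min and the cotransporter Slc12a1 at -2.43. Scnn1a deviated with this list (r = 0.92 over 27 kidneys), whose sum at 30 min ranged from 596.42 to 2342.06 FPKM and was highest in replicate 3, the kidney in which Scnn1a was also highest.

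Some markers of cell types outside the tubule were higher. At 30 min against 0 min, 3 of 5 endothelial markers rose (Pecam1 0.87, Cdh5 0.78), 2 of 4 podocyte markers rose (Synpo 1.27, Podxl 0.85), and all 5 erythroid markers rose (Hba-a2 2.47, Hba-a1 2.16), the erythroid sum going from 123.17 to 645.25 FPKM at 0 min to 795.88 to 1469.87 FPKM at 30 min. Of 7 leukocyte markers 4 rose and 1 fell, with Cd68 at 2.63, S100a9 at 1.39 and Ptprc at -0.25, and their sum went from 18.63 to 27.56 FPKM to 67.12 to 95.35 FPKM. Of 4 tubular injury markers 3 rose, Havcr1 by 7.06 and Krt20 by 6.71 the most. The part of these other cells in the values of the 9 genes was not tested.

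The other aquaporins were low in the kidney except for 2. Aqp11, an intracellular channel of the proximal tubule, fell by 1.59 on the log2 scale at 30 min against 0 min (from 28.5 to 9.44 FPKM), and Aqp7, a glycerol channel of the proximal straight tubule, fell by 0.84 (from 13.4 to 7.81 FPKM). Mip, Aqp5, Aqp8, Aqp9 and Aqp12 were under 1 FPKM in all 27 kidneys. Aqp12 was above 0 in 1 kidney only and was not tested. At 30 min against 0 min, 2 of 6 tested genes were thus called, both lower, where 25.4% of all tested genes were called lower. At 28 and 30 min against 16 to 26 min, Aqp7 and Aqp11 were called lower and Aqp8 and Aqp9 higher. The shares of all tested genes there were 22.5% lower and 29.6% higher.

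The list of vasopressin signaling genes, which also holds a second vasopressin receptor, moved in both directions. Of its 13 genes, 5 rose and 3 fell at 30 min against 0 min (26.9% of all tested genes were called higher and 25.4% lower). The regulatory subunit of protein kinase A Prkar2a rose by 0.75 (from 15.6 to 28.6 FPKM), and Adcy3, an adenylyl cyclase under 1 FPKM in every kidney, by 0.39. The V1a receptor Avpr1a fell by 1.01 (from 4.84 to 2.06 FPKM) and the cAMP phosphodiesterase Pde4d by 0.30. The median of the list was 0.20, against 0.00 over all tested genes. At 28 and 30 min against 16 to 26 min, 5 of the 13 rose and Avpr1a fell, where 29.6% of all tested genes were called higher and 22.5% lower. Avpr2 and Avpr1a were thus both lower at 30 min than at 0 min. The called subunits of protein kinase A, catalytic and regulatory ones, were higher.

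Genes for moving Aqp2 to the membrane rose in 4 of 10 and fell in 2 at 30 min against 0 min. Of all tested genes, 26.9% were called higher and 25.4% lower there. The membrane proteolipid Mal rose by 0.82 (from 109.1 to 176.6 FPKM) and the recycling-endosome GTPase Rab11a by 0.69 (from 43.5 to 72.2 FPKM). The SNARE protein Snap23 fell by 0.68 (from 39.1 to 25.5 FPKM) and Rab11fip2 by 0.30. The median of the list was 0.19.

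Of the 12 genes of the aldosterone response and of ENaC processing, 5 were called higher and 3 lower at 30 min against 0 min. The shares of all tested genes were 26.9% higher and 25.4% lower. Sgk1, the aldosterone-induced kinase that keeps ENaC at the membrane, rose by 1.49. It was at 19.25, 26.49 and 49.63 FPKM at 0 min, at 49.04, 36.41 and 37.76 FPKM at 28 min and at 60.12, 92.61 and 109.71 FPKM at 30 min. The 30 min kidneys lay above the sham kidneys, as did those of 22 min (55.49 to 81.74 FPKM) and of 26 min (53.09 to 92.92 FPKM), and the 28 min kidneys overlapped them. Sgk1 was also called higher at 26 min against 0 min (1.07, adjusted p = 0.038), but not at 28 min (0.35, adjusted p = 0.49). St14 (matriptase), a protease that acts upstream of prostasin, rose by 1.18 (from 27.6 to 66.0 FPKM). The mineralocorticoid receptor Nr3c2 fell by 0.53 (from 3.85 to 2.65 FPKM) and Hsd11b2, the enzyme that keeps glucocorticoids off that receptor, by 0.51 (from 119.5 to 80.2 FPKM). Prss8 (prostasin), which cleaves the gamma subunit, was the other gene of this list that fell. Against 16 to 26 min, 4 were higher and 4 lower at 28 and 30 min (29.6% of all tested genes were called higher and 22.5% lower).

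**Figure D5:**
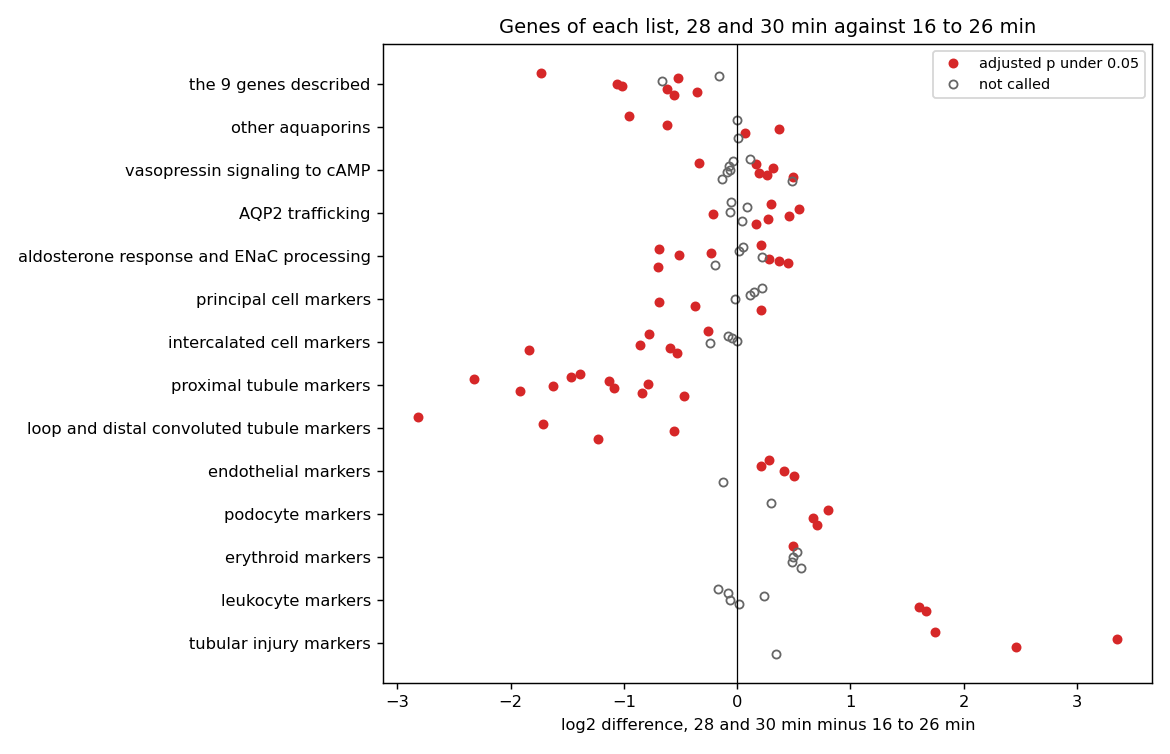
Log2 difference of each tested gene (1 point) between 28 and 30 min and 16 to 26 min (horizontal axis, normalized log2(FPKM + 1)), by gene list (rows), filled red where the limma adjusted p-value was under 0.05 and open where not. The 9 genes described lie at or left of -0.16, proximal and loop markers lie left of 0, and the vasopressin, trafficking and aldosterone lists have called genes on both sides.

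The genes whose pattern over the 27 kidneys was most like each of the 9, by Pearson's r of normalized values among genes with a mean of at least 1 FPKM, are given as a description, since the kidneys share ischemia time and library. For Aqp1 they were Ugt3a1 (0.97), Ugt3a2 (0.97) and Ppic (0.97), for Aqp2 L1cam (0.92), Rnf43 (0.87) and Tfap2b (0.85), and for Aqp3 Cpt1b (0.90), Gcgr (0.90) and Efhd1 (0.90). For Aqp4 they were Slc14a1 (0.92), Apela (0.92) and Cck (0.91), and for Aqp6 Nfyc (0.93), Pnkd (0.92) and Lrrc56 (0.92). Avpr2 went with Gstm2 (0.93), Apela (0.93) and Ptger3 (0.93). Apela was thus among the 3 nearest genes of both Aqp4 and Avpr2. Scnn1a was nearest to Itpkb (0.95), Wnk4 (0.94) and Cpt1b (0.93), Scnn1b to Hsd11b2 (0.91), Tomm40l (0.86) and Atp5d (0.86), and Scnn1g to Rhcg (0.92), Pfkm (0.92) and Clptm1 (0.92). No gene outside the 9 was nearest to more than 1 of the ENaC subunits.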

How the data were processed

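RNA-Seq values of 27 left kidneys were used. The authors deposited FPKM per gene symbol and kidney, rounded to 2 decimals, which the paper calls RPKM. The submitters' processing notes name Bowtie2, RSEM, DESeq2 and the build GRCm38.p6. The annotation was not given in the sources used here. The described quantile normalization and log2 transformation are not in the deposited values, so both were done here. Whole reads could not be recovered (67.4% of low values lay within 0.15 of a whole number), so the depth is unknown. log2(FPKM + 1) was quantile normalized and fitted by limma 3.58.1 in R 4.3.3, each ischemia time having its own mean, to 18188 genes above 0 FPKM in at least 3 kidneys, with Benjamini-Hochberg adjustment. A DEG had an absolute log2 difference above 1 and an adjusted p-value under 0.05. Exact permutation tests enumerated every division of the kidneys on the absolute difference, with p-values adjusted by scipy 1.17.1. The steps were tested on simulated data. The replicates are different mice, and the labels give no batch. The 9 genes and the 13 gene lists were chosen with earlier results of these data known. Beside the 9 genes, the text names from each list up to 2 called genes with the largest rise and 2 with the largest fall at 30 against 0 min. It also names the other aquaporins under 1 FPKM, Havcr1, Lcn2 and, for each of the 9, the 3 genes of highest Pearson's r. Ptprc, the single leukocyte marker that fell, is named by the rule of the largest falls. Slc14a2 and the Sgk1 and Prss8 values were singled out after their values were seen. Promoter windows came from RefSeq (GRCm38.p6). The alternatives were a pseudocount of 0.1 FPKM, no normalization, a constant sum, a filter of at least 1 FPKM (12929 genes), no filter (19392 genes), a replicate block, a trend in eBayes, a fit to the compared groups alone, leaving out each kidney, and leaving out both kidneys under 2 FPKM of Slc14a2.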

Additional observations from a re-analysis of the deposited data

How the results depend on the processing

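Of 1077 values of the 9 genes recomputed under the alternatives, 1016 kept their direction and their side of the threshold, and of 52 called gene comparisons, 34 kept their call under every alternative run. The precision is limited by 3 mice per time and by the unknown depth.

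With a fit of only the groups compared, 0 of the 9 genes were called at 16 min (Aqp1 -1.03, adjusted p = 0.068), 3 at 22 min and 3 at 26 min. At 26 min 2 were called with a filter of at least 1 FPKM and 2 with a replicate block. From 26 to 28 min 2 were called without both kidneys low in Slc14a2, a setting chosen after seeing the data. With 1 kidney left out, 1 to 2 were called at 26 min, 2 to 4 from 26 to 28 min, 0 to 2 from 28 to 30 min, and 4 to 7 by the F test (4 without replicate 1 or 3 at 28 min). The call of Aqp6 at 28 min was lost without normalization (adjusted p = 0.057), and that of Scnn1b from 26 to 28 min also with a pseudocount of 0.1 FPKM, without normalization and with only the groups compared.

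Of 108 pairs of kidneys with the same replicate number in the labels, 25 had deviations correlated above 0.1 (lowest -0.416, median -0.0088, highest 0.48). Kidneys of different numbers were not compared in this way, so the count cannot decide whether the numbers pair the kidneys. With the replicate block, Aqp4 was called at 26 min (-1.49, adjusted p = 0.022) and at 28 and 30 min against 16 to 26 min (-0.66, adjusted p = 0.047), and Scnn1a was not called from 26 to 28 min (-0.83, adjusted p = 0.052). The block changed no other call of a gene given in the text.

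Values near 0 changed sign. At 16 to 26 min against 0 min Aqp2 was at 0.0073 without normalization, 0.0065 with a constant sum, 0.089 without both kidneys low in Slc14a2 and -0.20 to 0.17 with 1 kidney left out. Scnn1g was at 0.069 without normalization, 0.070 with a constant sum and at -0.056 to 0.015 with 1 kidney left out, and Aqp6 at -0.073 to 0.091. Aqp2 at 30 min ranged from -0.33 to 0.39 with 1 kidney left out.

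Without both kidneys low in Slc14a2, Aqp3 to Aqp2 (-0.42) and Avpr2 to Aqp2 (-0.36) passed at 16 to 26 min against 0 min. With 1 kidney left out, the differences there ranged from -0.50 to -0.21 for Avpr2 to Aqp2, from -0.68 to -0.50 for Aqp4 to Aqp2 and from 0.38 to 0.43 for Scnn1b to Scnn1a. At 28 and 30 min they ranged from -0.32 to -0.22 for Aqp3 to Aqp2, from -0.63 to -0.23 for Aqp4 to Aqp2, from 0.21 to 0.47 for Scnn1b to Scnn1a and from -0.0028 to 0.28 for Scnn1g to Scnn1a.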
